A study of Schizosaccharomyces pombe with 29 samples.

Results

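The genes pho7 (SPBC27B12.11c), csk1 (SPAC1D4.06c), asp1 (SPCC1672.06c) and aps1 (SPAC13G6.14) encode regulators of phosphate homeostasis in the fission yeast Schizosaccharomyces pombe. These 4 genes were taken by their common names in the authors' deposited annotation from a table of 6986 gene IDs, and all 4 passed the filter on low counts in each of the 12 comparisons made here. They were followed through 31 libraries of polyadenylated RNA in 10 groups, with 15243598 to 35763201 counted reads per library.

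Fission yeast takes up and scavenges phosphate with the products of pho1, pho84 and tgp1, which are kept low when phosphate is plentiful, in part by transcription of long non-coding RNAs upstream of each gene. Pho7 is the zinc-finger transcription factor that activates these genes. Csk1 is a kinase that activates cyclin-dependent kinases, among them Mcs6 and Cdk9, which phosphorylate the tail of Rpb1, known as the carboxy-terminal domain (CTD), in RNA polymerase II. Asp1 makes and, with a separate domain, breaks down inositol pyrophosphates, signalling molecules that report phosphate status, and Aps1 is a Nudix hydrolase that removes their pyrophosphate groups. The CTD is a row of repeated heptads whose phosphorylation guides termination and processing of transcripts.

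The strains differed in the CTD of Rpb1. The controls, WT29, had 29 heptads of the wild-type sequence (h+ rpb1-CTD-WT29::NatMX) and came as control set 1, paired by the labels with Y1F, S2A and S2A-S7A, and control set 2, paired with T4A, ALT-P3A, ALT-S5A, ALT-P6A and WT18. Set 1 has 3 sample records, while set 2 is 1 record to which 3 count columns were assigned by elimination. A labelled control of set 2 is thus that record, and its columns are inferred. The authors' control means for the strains paired with set 2 could not be rebuilt from these columns. For csk1 in T4A the authors' deposited table gave a log2 change of 0.01, where these columns gave 0.78. These columns were treated as 3 replicates because the series design text speaks of 3 or more replicates for every sample. Y1F, S2A and S2A-S7A carried tyrosine-to-phenylalanine, serine-to-alanine and double serine-to-alanine changes in 29 heptads, all in h+ NatMX strains. ALT-P3A, ALT-S5A and ALT-P6A were h+ NatMX strains with 29 heptads and changes of a proline, a serine or a proline to alanine, with a prefix, ALT, that no label spells out. T4A, a threonine-to-alanine change in 29 heptads for which the labels give neither mating type nor marker, was re-analysed by the authors from an earlier series run on another instrument, so source and allele cannot be told apart there. WT18 had 18 wild-type heptads. Of its 4 libraries 2 were new (h+, NatMX) and 2 came from an earlier series with other RNA and library kits (h- ade6 ura4-D18 leu1-32, no NatMX in the label). Each other group had 3 libraries. All cultures were harvested during growth in YES medium at 30 °C. The earlier WT18 pair is described as biological replicates; no label used here says the same of the others, so p-values measure the spread between libraries, which may be technical. With the 3 set 2 columns summed to 1 library, 2 of the 9 calls of a regulator in the labelled comparisons with set 2 and between the control sets remained, those of csk1 in WT18 and between the control sets (adjusted p = 0.017 and 0.048, edgeR).

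The rpb1 row stood at 166 CPM (counts relative to library size, scaled over all libraries) in control set 1 and at 473 CPM in control set 2, and between 58.8 CPM in S2A and 229 CPM in WT18 in the altered strains. Reads of this row do not check the CTD sequence. The control sets carry the same strain label, yet 1479 genes rose and 1180 fell in set 2 against set 1 at an adjusted p under 0.05 in edgeR's quasi-likelihood test, and the regulators are therefore given against both sets.

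Throughout, rose and fell mean an adjusted p under 0.05 in that test, adjusted by the Benjamini-Hochberg method over all genes tested, with no minimum fold. Against its labelled control, 1 regulator rose in Y1F (pho7) where 23.6% of all genes tested rose, and 1 fell (aps1) where 27.6% fell. In S2A none of the 4 rose (background 18.2%) and 2 fell, csk1 and asp1 (17.5%). In S2A-S7A 1 rose, pho7 (29.4%), and 2 fell, csk1 and asp1 (31.1%). In T4A 1 rose, csk1 (18.4%), and 2 fell, asp1 and aps1 (22.4%). In ALT-P3A 0 rose (21.8%) and 1 fell, aps1 (21.0%). In WT18 2 rose, csk1 and asp1 (35.8%), and 1 fell, pho7 (33.8%). With 4 genes, these counts of 0 to 2 are too small to be told from the backgrounds or set near them, and no test of this was made. None of the 4 passed in ALT-S5A, where 14.9% of genes rose and 18.1% fell, or in ALT-P6A, where 22.1% rose and 23.3% fell. At an unadjusted p under 0.05 in edgeR 1 regulator passed in ALT-S5A, pho7, and 0 passed in ALT-P6A. The DESeq2 Wald test against set 2 called 0 in either strain. The shares of all genes that passed at that unadjusted p or in the Wald test are not given here, so these counts have no background. The lack of calls holds for set 2 only: against set 1 csk1 and asp1 fell in both strains and pho7 rose in ALT-P6A. Of genes tested against set 1, 41.0% changed in ALT-S5A and 50.5% in ALT-P6A. The authors' deposited tables called a fall of csk1 in both strains (-0.98 and -0.92).

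**Figure D1:**
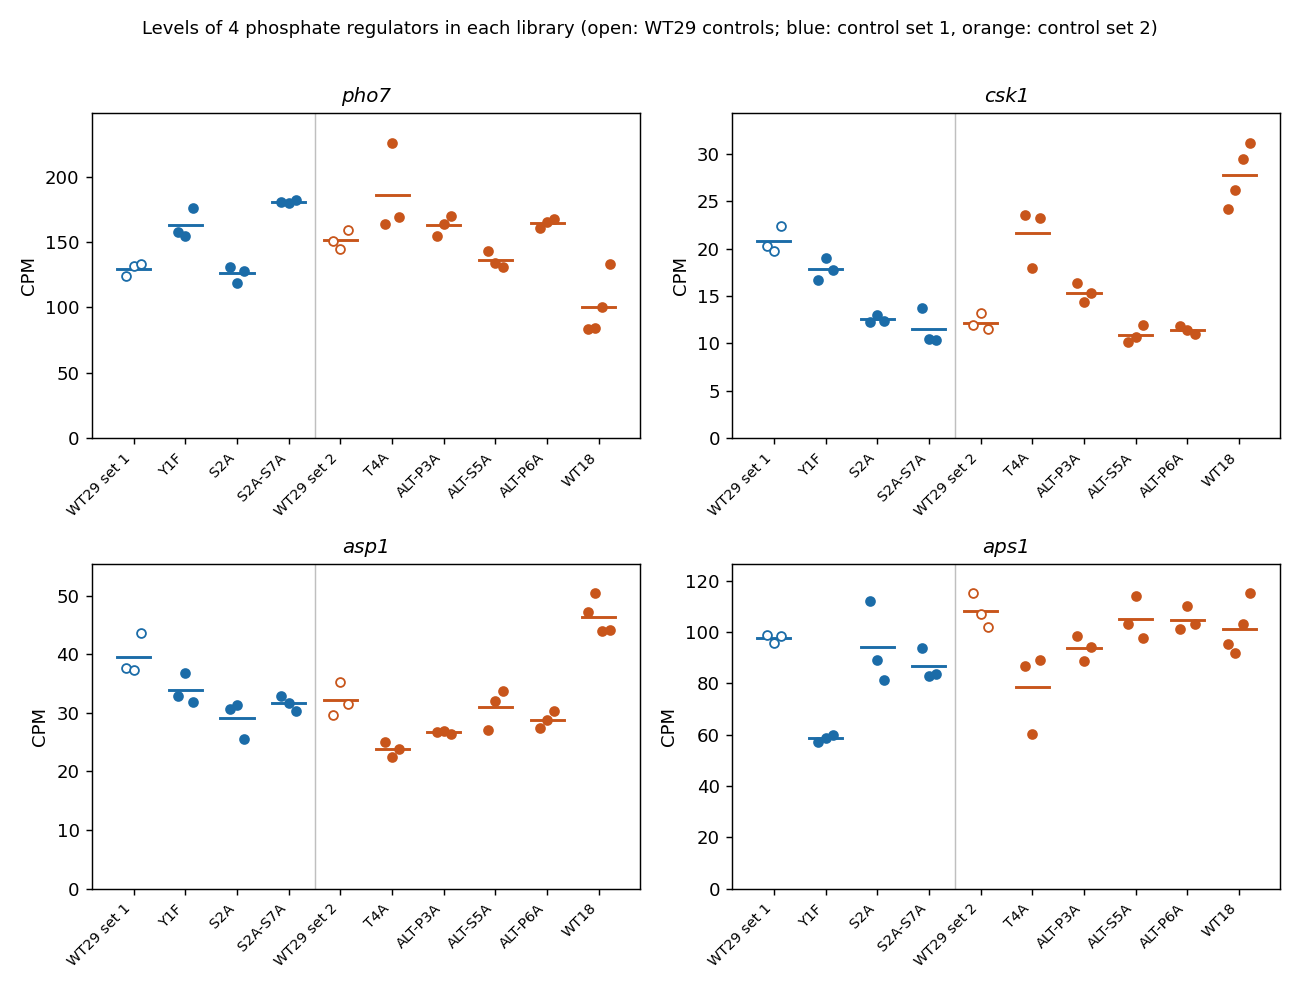
Level of each regulator in every library, in CPM (vertical axis, from 0), by group (horizontal axis); points are libraries and bars are group means. Control libraries are open, and colours give the control set a group belongs to. In csk1 the set 2 controls (11.5 to 13.2 CPM) lie below the set 1 controls (19.8 to 22.4 CPM), and in aps1 the 3 Y1F libraries (57.2 to 59.8 CPM) lie below every other library.

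Between the control sets 1 regulator rose, pho7 (24.5% of genes tested rose), and 1 fell, csk1 (19.5% fell), in set 2 against set 1. The csk1 libraries stood at 20.3, 19.8 and 22.4 CPM in set 1 and at 11.9, 13.2 and 11.5 CPM in set 2. The sets did not overlap, and csk1 was 1.65-fold lower in set 2 (log2 change -0.72 ± 0.15, SE, n = 3 against 3 libraries; adjusted p = 0.00392, edgeR). For pho7 the set 1 libraries stood at 124, 132 and 133 CPM and the set 2 libraries at 151, 145 and 159 CPM. The set 2 libraries were all higher (0.28 ± 0.07, adjusted p = 0.0118, edgeR), but this call held in 3 of the 6 fits that left out 1 library, and it was lost without set 1 replicate 1 or 2 or without set 2 replicate 6. Every asp1 library was lower in set 2 and every aps1 library higher, at -0.25 ± 0.13 and 0.20 ± 0.07 (adjusted p = 0.141 and 0.0518, edgeR).

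Each allele was also set against the control it was not paired with. Then 3 regulators passed in ALT-P3A (46.6% of genes tested changed) and 3 in ALT-P6A (50.5%). In Y1F 2 passed (61.8%), as did 2 in S2A-S7A (48.9%), 2 in ALT-S5A (41.0%) and 2 in T4A (38.3%). In WT18 1 passed (59.6%) and in S2A 1 (45.7%). Over the 32 pairs of allele and regulator, 14 passed against the labelled control and 16 against the other. In 4 pairs the gene passed against both sets in the same direction. These were pho7, which rose in S2A-S7A; csk1, which rose in WT18; asp1, which fell in T4A; and aps1, which fell in Y1F. No pair passed in opposite directions, and 6 passed against neither set. The share of all genes that passed against both sets, or against neither, is not given here. These counts therefore have no background and are not read as a trait of the regulators. The comparisons that share a control set also share its libraries.

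**Figure D2:**
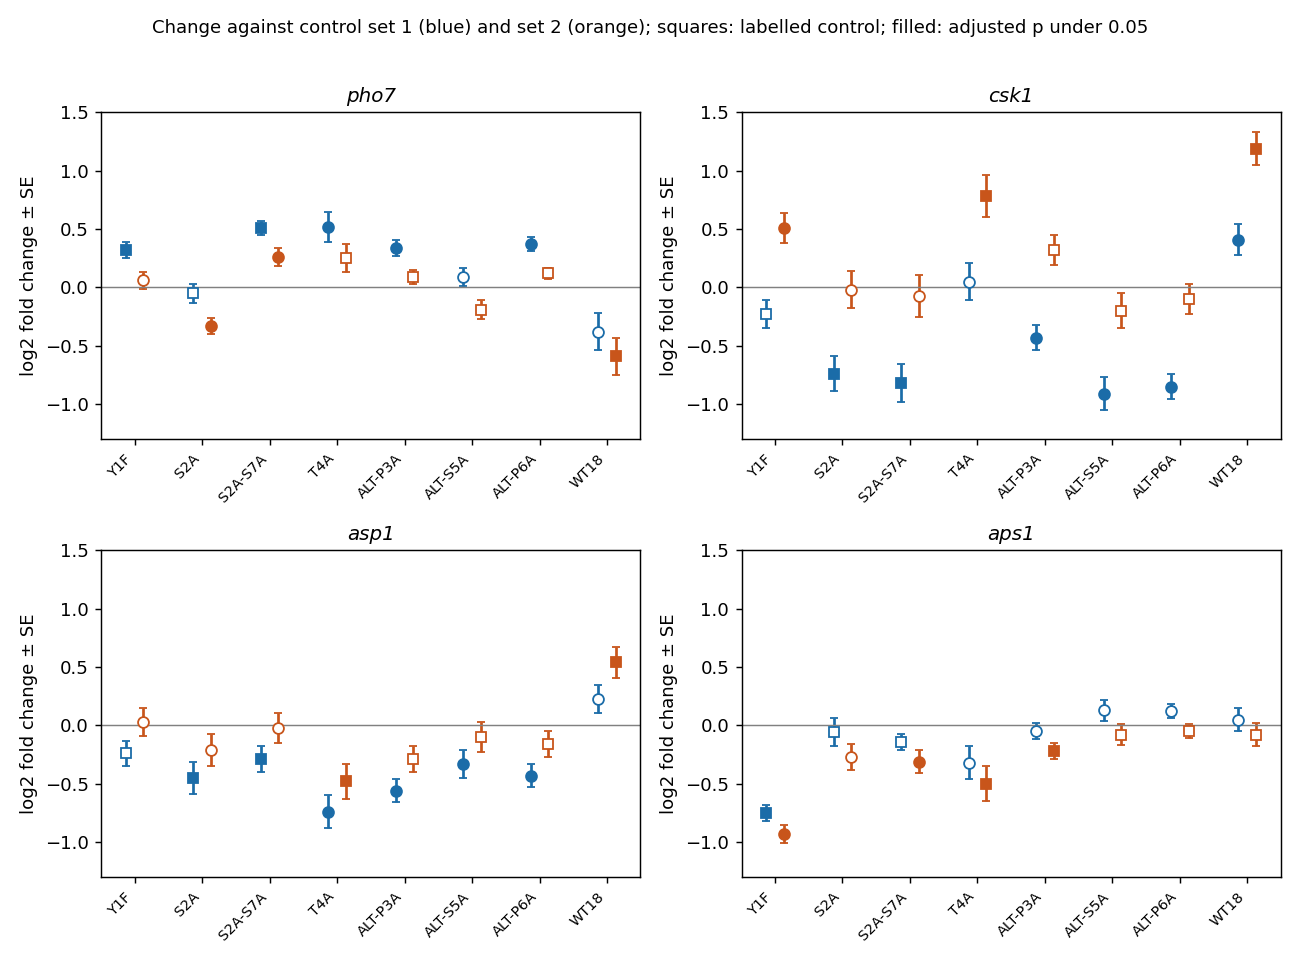
Log2 fold change of each regulator (vertical axis, with SE bars) in the 8 altered strains (horizontal axis) against control set 1 (blue) and control set 2 (orange), from edgeR fits. Squares are the control the labels pair with the strain, and filled symbols have an adjusted p under 0.05. Both symbols are filled on the same side of 0 for pho7 in S2A-S7A, csk1 in WT18, asp1 in T4A and aps1 in Y1F.

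pho7, the transcription factor gene, had its highest scaled means in T4A and S2A-S7A and its lowest in WT18. This order depended on scaling: in CPM from unscaled library totals the highest mean was that of ALT-P3A (175), the lowest that of S2A (111), and WT18 (136) lay above set 1 (123). The S2A-S7A libraries stood at 181, 180 and 182 CPM and those of S2A at 131, 119 and 128 CPM. In scaled CPM S2A-S7A lay above all control libraries of either set, while S2A overlapped set 1 and lay below set 2. In unscaled CPM S2A-S7A (148, 152 and 156) overlapped set 2 (155, 157 and 162), and its mean of 152 lay below the set 2 mean of 158. In S2A-S7A pho7 rose 1.43-fold against set 1 (0.51 ± 0.06, adjusted p = 2.2e-04, edgeR) and 1.2-fold against set 2 (0.26 ± 0.08, adjusted p = 0.0171). S2A gave -0.05 ± 0.08 against set 1 (adjusted p = 0.696) and fell against set 2 (-0.33 ± 0.07, adjusted p = 0.00536).

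In Y1F the pho7 libraries stood at 158, 155 and 176 CPM. They lay above set 1 and overlapped set 2, and pho7 rose against set 1 (0.32 ± 0.07, adjusted p = 0.00233, edgeR) but gave 0.06 ± 0.07 against set 2 (adjusted p = 0.476). The T4A libraries stood at 164, 226 and 169 CPM, with replicate 2 apart from the others, which lay below all S2A-S7A libraries. T4A gave 0.25 ± 0.12 against set 2 (adjusted p = 0.122) and 0.10 ± 0.08 without replicate 2, and rose against set 1 with all libraries (0.52 ± 0.13, adjusted p = 0.0112) and without replicate 2 (0.37 ± 0.08, adjusted p = 0.0034). ALT-P3A and ALT-P6A, at 155 to 170 and 161 to 168 CPM, rose against set 1 (0.34 ± 0.07 and 0.37 ± 0.06, adjusted p = 0.00132 and 4.4e-04) and gave 0.09 ± 0.06 and 0.12 ± 0.05 against set 2 (adjusted p = 0.217 and 0.0935). ALT-S5A, at 131 to 143 CPM, passed against neither set, with -0.19 ± 0.08 against set 2 and 0.09 ± 0.08 against set 1.

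In WT18 the 2 new libraries stood at 83.7 and 84.4 CPM and the 2 earlier ones at 100 and 133 CPM. All lay below set 2 and the highest reached the range of set 1. pho7 fell 1.5-fold against set 2 (-0.59 ± 0.16, adjusted p = 0.0106, edgeR) and did not pass against set 1 (-0.38 ± 0.16, adjusted p = 0.0694). The new pair alone gave -0.81 ± 0.08 (adjusted p = 6.1e-05) and the earlier pair alone -0.24 ± 0.13 (adjusted p = 0.14). A contrast of earlier against new libraries, chosen after seeing the data, gave 0.40 ± 0.14 (adjusted p = 0.0515). Protocol, mating type and auxotrophic markers differ between these pairs and cannot be told apart.

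csk1, the kinase gene, showed the widest spread of the 4 between groups, from a mean of 11 CPM in ALT-S5A to 27.8 CPM in WT18, a 2.53-fold range, against 1.84-fold for aps1, 1.85-fold for pho7 and 1.95-fold for asp1. In CPM from unscaled totals these ranges were 3.89-fold for csk1, 2.5-fold for aps1, 1.58-fold for pho7 and 2.85-fold for asp1, with csk1 lowest in S2A-S7A (9.68). The WT18 libraries stood at 24.2, 26.2, 29.5 and 31.2 CPM. All 4 lay above every other library of the series. csk1 rose 2.29-fold against set 2 (1.19 ± 0.14, adjusted p = 3.2e-04, edgeR) and 1.33-fold against set 1 (0.41 ± 0.13, adjusted p = 0.023). The rise against set 2 passed with the new pair alone (1.09 ± 0.15, adjusted p = 3.5e-04) and with the earlier pair alone (1.45 ± 0.17, adjusted p = 3.5e-04). The authors' deposited table gave 0.38 (adjusted p = 0.00892).

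In T4A csk1 stood at 23.6, 18 and 23.3 CPM, above set 2 and across the range of set 1. It rose 1.71-fold against set 2 (0.78 ± 0.18, adjusted p = 0.00786, edgeR) and gave 0.05 ± 0.16 against set 1 (adjusted p = 0.847). In Y1F it stood at 16.7, 19 and 17.8 CPM, between the control sets. Y1F gave -0.23 ± 0.12 against set 1 (adjusted p = 0.114) and rose against set 2 (0.51 ± 0.13, adjusted p = 0.00624).

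The other alleles had less csk1 RNA than set 1 and were near set 2. S2A stood at 12.3, 13 and 12.4 CPM, S2A-S7A at 13.7, 10.5 and 10.4 CPM, ALT-S5A at 10.2, 10.7 and 11.9 CPM, and ALT-P6A at 11.8, 11.4 and 11 CPM. These 12 libraries overlapped set 2 in each group and lay below all of set 1. Against set 1 csk1 fell 1.67-fold in S2A (-0.74 ± 0.15, adjusted p = 0.00375, edgeR), 1.77-fold in S2A-S7A (-0.82 ± 0.16, adjusted p = 0.00247), 1.88-fold in ALT-S5A (-0.91 ± 0.14, adjusted p = 1.6e-04) and 1.8-fold in ALT-P6A (-0.85 ± 0.11, adjusted p = 1.8e-04). Against set 2 these alleles gave -0.02 ± 0.16, -0.07 ± 0.18, -0.20 ± 0.15 and -0.10 ± 0.13 (adjusted p = 0.915, 0.767, 0.341 and 0.542). ALT-P3A, at 14.4 to 16.4 CPM, lay between the sets, with a fall against set 1 (-0.43 ± 0.11, adjusted p = 0.00812) and 0.32 ± 0.13 against set 2 (adjusted p = 0.0736).

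The authors' deposited tables give another reference for all 4 regulators, since their control means for the set 2 alleles could not be rebuilt from the set 2 columns. Of 32 pairs of allele and regulator, the call in the authors' deposited tables differed from that of the fits here in 7, of which 6 were against set 2. In the authors' deposited tables the log2 change of csk1 was 0.01 for T4A (adjusted p = 0.971). It was -0.98 for ALT-S5A, -0.92 for ALT-P6A and -0.50 for ALT-P3A in the authors' deposited tables (adjusted p = 3.0e-21, 6.0e-19 and 1.5e-06). These values are nearer to those against set 1 than to those against set 2. The authors' deposited tables also called a rise of pho7 in T4A (0.39, adjusted p = 4.3e-04), and called neither a rise nor a fall of aps1 in ALT-P3A (-0.08, adjusted p = 0.533). In Y1F the authors' deposited table called a fall of asp1 (-0.22, adjusted p = 0.0425). For csk1 in the alleles paired with set 1 the authors' deposited tables gave -0.80 in S2A-S7A, -0.73 in S2A and -0.22 in Y1F.

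asp1, the inositol pyrophosphate kinase gene, was highest in WT18 and lowest in T4A. The T4A libraries stood at 25.1, 22.4 and 23.8 CPM, the set 2 controls at 29.7, 35.2 and 31.6 CPM and the set 1 controls at 37.6, 37.4 and 43.7 CPM. T4A lay below all libraries of every other group. asp1 fell 1.4-fold against set 2 (-0.48 ± 0.15, adjusted p = 0.0269, edgeR) and 1.67-fold against set 1 (-0.74 ± 0.14, adjusted p = 0.00208). The call against set 2 held in 2 of 6 fits that left out 1 library, without T4A replicate 2 or set 2 replicate 4, with values from -0.53 to -0.42. The authors' deposited table gave -0.33 (adjusted p = 4.3e-04).

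In the other substituted alleles the asp1 means lay between 26.7 CPM in ALT-P3A and 33.8 CPM in Y1F, below the set 1 mean of 39.6 CPM. Against set 1 asp1 fell in S2A (-0.45 ± 0.14, adjusted p = 0.0301, edgeR), S2A-S7A (-0.29 ± 0.11, adjusted p = 0.0497), ALT-P3A (-0.56 ± 0.10, adjusted p = 4.6e-04), ALT-S5A (-0.33 ± 0.12, adjusted p = 0.0433) and ALT-P6A (-0.43 ± 0.10, adjusted p = 0.0046), and gave -0.24 ± 0.11 in Y1F (adjusted p = 0.0805). Against set 2 none of these 6 passed, with values from -0.29 in ALT-P3A to 0.03 in Y1F. The S2A call held in 1 of 6 fits that left out 1 library, without S2A replicate 1 (-0.36 to -0.49 over the 6), and the S2A-S7A call in 0 of 6 (-0.34 to -0.20). In WT18 asp1 stood at 47.2, 50.4, 43.9 and 44.2 CPM, above all other libraries. It rose 1.45-fold against set 2 (0.54 ± 0.13, adjusted p = 0.00649) and gave 0.23 ± 0.12 against set 1 (adjusted p = 0.143).

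aps1, the Nudix hydrolase gene, was lowest in Y1F. The Y1F libraries stood at 57.2, 58.7 and 59.8 CPM, the set 1 controls at 98.6, 95.6 and 98.3 CPM and the set 2 controls at 115, 107 and 102 CPM. The Y1F libraries lay below those of every other group. aps1 fell 1.68-fold against set 1 (-0.75 ± 0.07, adjusted p = 2.8e-06, edgeR) and 1.9-fold against set 2 (-0.93 ± 0.08, adjusted p = 1.6e-06). The call against set 1 held in all 6 fits that left out 1 library, with values from -0.76 to -0.73, and the authors' deposited table gave -0.73 (adjusted p = 3.7e-09).

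In T4A aps1 stood at 86.9, 60.2 and 89 CPM, with replicate 2 apart from the others and all 3 below both control sets. It fell 1.41-fold against set 2 (-0.50 ± 0.15, adjusted p = 0.0237, edgeR). Without replicate 2 the value was -0.33 ± 0.09 (adjusted p = 0.011), and without set 2 replicate 4 the call was lost (-0.44 ± 0.17, adjusted p = 0.075). Against set 1 T4A gave -0.32 ± 0.14 (adjusted p = 0.0978). S2A-S7A, at 93.6, 82.8 and 83.5 CPM, fell against set 2 (-0.31 ± 0.10, adjusted p = 0.0239) and gave -0.14 ± 0.07 against set 1 (adjusted p = 0.129). ALT-P3A fell against set 2 (-0.22 ± 0.07, adjusted p = 0.0377), a call lost without any ALT-P3A library or without set 2 replicate 4, and gave -0.05 ± 0.07 against set 1. In S2A, ALT-S5A, ALT-P6A and WT18, where the means lay between 94.2 and 105 CPM, aps1 passed against neither set.

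The order of the groups differed between the genes, and several neighbours in each order overlapped. For pho7 it ran from T4A (186 CPM) and S2A-S7A (181) through ALT-P6A (165), ALT-P3A (163), Y1F (163), set 2 (151), ALT-S5A (136), set 1 (129) and S2A (126) to WT18 (100). Its only neighbours without overlap were S2A-S7A and ALT-P6A, and set 2 and ALT-S5A. For csk1 WT18, set 1, Y1F and ALT-P3A each stood clear of the group that followed, while the 5 lowest, S2A, set 2, S2A-S7A, ALT-P6A and ALT-S5A, each overlapped the next. For asp1 WT18, set 1, ALT-P6A and ALT-P3A each stood clear of the next group, and the groups from Y1F (33.8 CPM) to ALT-P6A (28.8 CPM) each overlapped the next. For aps1 the 9 groups from set 2 (108 CPM) to T4A (78.7 CPM) each overlapped the next, and Y1F (58.6 CPM) stood clear. Over the 10 group means of log2 CPM, which share libraries, scaling and control strain, Pearson's r was -0.76 for pho7 with asp1 and between -0.42 and 0.46 for the other 5 pairs.

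Some alleles that share a control set were compared directly, within 1 fit. S2A-S7A against S2A sets the added change of the last serine of the heptad against S2A alone. There 1 of the 4 rose (17.5% of genes tested rose) and 0 fell (16.9% fell). pho7 rose 1.47-fold (0.56 ± 0.07, adjusted p = 5.9e-04, edgeR), and all S2A-S7A libraries lay above those of S2A. csk1, asp1 and aps1 gave -0.09 ± 0.15, 0.15 ± 0.12 and -0.08 ± 0.11 (adjusted p = 0.677, 0.339 and 0.578). With replicate number as a block pho7 gave 0.56 ± 0.07 (adjusted p = 2.5e-04), and the number of genes that fell in this contrast went from 1021 to 1608.

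Against set 2 the phosphate-acquisition genes pho1 and pho84 fell in T4A and rose in ALT-S5A. In the direct contrast of these strains all 4 regulators passed: 2 rose in T4A (13.6% of genes tested rose) and 2 fell (17.2% fell). This was the only one of the 12 comparisons against labelled controls, between control sets or between alleles in which every regulator passed. No library of the strains overlapped for any of the 4 genes, but the share of all genes without overlap is not given here. T4A came from an earlier series run on another instrument, so source and allele cannot be told apart in this contrast. With replicate number as a block, added after seeing the data and fitted without the control set, csk1 alone of the 4 passed (adjusted p = 0.0094, edgeR). csk1 was 1.93-fold higher in T4A (0.95 ± 0.16, adjusted p = 0.00101, edgeR) and pho7 1.33-fold higher (0.41 ± 0.11, adjusted p = 0.0136). aps1 was 1.37-fold lower (-0.45 ± 0.14, adjusted p = 0.0268) and asp1 1.34-fold lower (-0.42 ± 0.14, adjusted p = 0.0341). Over 9 fits that left out 1 library the csk1 call held in 9, pho7 in 8, aps1 in 7 and asp1 in 3. Without T4A replicate 2 pho7 gave 0.27 ± 0.08 and aps1 -0.28 ± 0.09 (adjusted p = 0.02 and 0.033). The pho7 call was lost without ALT-S5A replicate 3, the aps1 call without ALT-S5A replicate 1 or 2, and the asp1 call without any T4A library, ALT-S5A replicate 2 or 3, or set 2 replicate 6.

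ALT-P3A and ALT-P6A change different prolines of the heptad. Between them 1 regulator rose (13.1% of genes tested rose) and 0 fell (15.7% fell). csk1 was 1.34-fold higher in ALT-P3A (0.42 ± 0.11, adjusted p = 0.0175, edgeR), with no overlap between the strains, and the call held in 5 of 9 fits that left out 1 library. It was lost without ALT-P3A replicate 1 or 3 or ALT-P6A replicate 2 or 3. pho7, asp1 and aps1 gave -0.03 ± 0.05, -0.13 ± 0.10 and -0.17 ± 0.06 (adjusted p = 0.686, 0.353 and 0.06).

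Among the genes that Pho7 activates, log2 changes ran from -3.64 to 4.09 over the 8 strains, and those of pho7 itself from -0.59 to 0.51. Of pho1 (secreted acid phosphatase), pho84 (phosphate transporter) and tgp1 (glycerophosphodiester transporter), all 3 rose in S2A-S7A, ALT-P3A, ALT-S5A and ALT-P6A against the labelled control, with medians of 1.56, 0.35, 2.19 and 2.35 (log2) against medians of all genes between -0.03 and 0.02. In these strains 14.9% to 29.4% of all genes rose. In ALT-P3A the rise of pho84 by 0.18 ± 0.06 was a fall of -0.53 ± 0.08 against set 1, and 2 of 3 rose with DESeq2 size factors. In T4A pho1 and pho84 fell (-3.64 and -3.05) and tgp1 gave -0.49 ± 0.23 (adjusted p = 0.108, edgeR). In Y1F and S2A tgp1 rose (0.69 and 1.44), pho84 fell (-1.42 and -0.59, the latter 0.08 against set 2) and pho1 gave 0.05 and -0.18. In WT18 pho1 and pho84 fell (-0.88 and -1.11) and tgp1 rose (1.00).

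Set beside these, the regulator levels took no common direction. pho7 rose against both control sets in S2A-S7A, where all 3 acquisition genes rose, but passed against neither in ALT-S5A, where tgp1 rose by 4.08 and pho1 by 2.19. In T4A, where pho1 stood at 115 CPM against 1380 CPM in set 2, pho7 gave 0.25 ± 0.12 (adjusted p = 0.122, edgeR). In WT18 pho7 fell against set 2 (-0.59), as did pho1 (-0.88) and pho84 (-1.11), while tgp1 rose (1.00). Against set 1 pho7 did not pass there. Whether the level of pho7 bears on that of the acquisition genes was not tested.

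**Figure D3:**
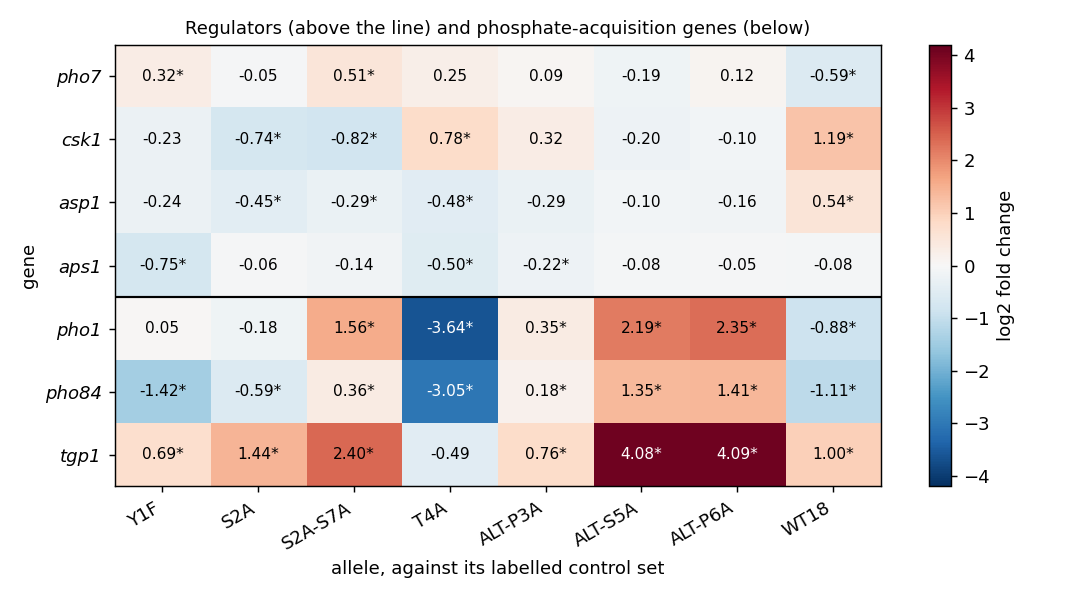
Log2 fold change, as colour and number, of the 4 regulators (above the line) and of pho1, pho84 and tgp1 (below) in each altered strain against its labelled control set; an asterisk marks an adjusted p under 0.05. Values reach -3.64 for pho1 in T4A and 4.09 for tgp1 in ALT-P6A, while those of the regulators lie between -0.82 and 1.19.

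A further list held genes of inositol phosphate metabolism, genes of proteins with the phosphate-sensing SPX domain and the phosphate transporter gene pho842. Of these 10 were matched and all 10 were tested, while vtc1 and pho87 found no match. Against the labelled control 3 rose and 7 fell in WT18, where 35.8% of all genes tested rose and 33.8% fell. In S2A-S7A 2 rose and 7 fell (background 29.4% and 31.1%). In Y1F 2 rose and 5 fell (23.6% and 27.6%), as in S2A (18.2% and 17.5%). In T4A 1 rose and 4 fell (18.4% and 22.4%), and in ALT-P6A 3 rose and 4 fell (22.1% and 23.3%). In ALT-P3A 2 rose and 3 fell (21.8% and 21.0%), and in ALT-S5A 1 rose and 3 fell (14.9% and 18.1%). The list's median lay between -0.69 in WT18 and 0.04 in ALT-S5A. Against the other control set more genes fell than rose in Y1F, S2A, S2A-S7A, T4A, ALT-P3A and WT18, and the reverse held in ALT-S5A (2 rose, 1 fell) and ALT-P6A (3 rose, 2 fell), where 38.3% to 61.8% of all genes changed over the 8 strains. The largest change was that of vtc4, a subunit of the vacuolar polyphosphate synthetase, in Y1F and WT18 (-1.29 ± 0.08 and -1.72 ± 0.10) and that of vtc2 of the same complex in T4A (-1.08 ± 0.09; adjusted p = 2.7e-08, 1.7e-04 and 1.7e-05, edgeR). The phosphate transporter gene pho842 rose in T4A, ALT-P3A, ALT-S5A and ALT-P6A (1.04, 0.28, 1.31 and 1.43) and fell in Y1F, S2A, S2A-S7A and WT18 (-0.96, -1.21, -1.03 and -1.44), each against its labelled control. It was itself lower in set 2 than in set 1 by -1.13 ± 0.06 (adjusted p = 4.9e-06, edgeR), with means of 145 CPM and 329 CPM. The means of T4A (309), ALT-P3A (178), Y1F (171) and S2A-S7A (158) lay between the control means, so their directions depend on the control set. ALT-S5A (371) and ALT-P6A (393) lay above both control means. S2A (143) and WT18 (53.3) lay below both, S2A close to set 2.

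The kinases and phosphatases of the CTD, on which Csk1 acts in part, gave 11 tested genes. In WT18, where csk1 rose, 7 of them rose and 3 fell (median 1.31) against set 2, where 35.8% of all genes rose and 33.8% fell. Against set 1, where 59.6% of all genes changed, 7 rose and 1 fell (median 0.67). The pair with the largest change was pmh1, a subunit of the Mcs6 kinase complex, and the CTD phosphatase gene fcp1, with rises of 1.63 ± 0.29 and 1.55 ± 0.23 (adjusted p = 0.00153 and 6.7e-04, edgeR). Among kinases that Csk1 activates, mcs6 fell by 1.45 ± 0.18 and cdk9 rose by 1.43 ± 0.21 (adjusted p = 3.7e-04 and 6.8e-04, edgeR). The other kinase genes of the list, cdc2 and lsk1, fell too (-0.66 ± 0.18 and -0.48 ± 0.13, adjusted p = 0.0102 and 0.0108, edgeR). In S2A-S7A, where csk1 fell against set 1, 2 rose and 7 fell (median -0.60) where 29.4% and 31.1% of all genes did, and 0 rose and 3 fell against set 2, where 48.9% changed. The other 6 strains had 0 to 4 that rose and 1 to 3 that fell of the 11 against their labelled control, where 14.9% to 23.6% of all genes rose and 17.5% to 27.6% fell. In T4A 1 rose and 1 fell, with lsc1, a cyclin of the CTD kinase Lsk1, at 0.60 ± 0.16 and lsk1 at -0.40 ± 0.12 (adjusted p = 0.0151 and 0.0263); with DESeq2 size factors 2 rose and 0 fell.

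RNAs annotated opposite aps1 and asp1 are counted in the table as aps1-antisense-1 (SPNCRNA.620) and asp1-antisense-1 (SPNCRNA.1144). Whether reads were counted by strand is not given in the sources used here, so reads of a gene and of the RNA opposite cannot be told apart with certainty. aps1-antisense-1 had 17, 28 and 48 counts in the set 1 libraries and 39, 57 and 33 in the set 2 libraries. It had 6, 8 and 7 counts in Y1F, 5, 4 and 10 in S2A-S7A, 6, 1 and 8 in T4A, and 0, 2 and 2 in S2A. All 12 libraries of these 4 strains lay below every control library in CPM. It fell 4.49-fold in Y1F (-2.17 ± 0.42, adjusted p = 8.6e-04, edgeR), 4.71-fold in S2A-S7A (-2.24 ± 0.49, adjusted p = 0.00437) and 7.54-fold in T4A (-2.91 ± 0.40, adjusted p = 3.7e-04) against the labelled control, and fell in S2A (adjusted p = 8.8e-04), where the counts are too low for a fold. All 4 falls also passed against the other set. ALT-P3A, ALT-P6A and WT18 passed against neither set, while ALT-S5A, with 50, 123 and 104 counts, gave 0.74 ± 0.27 against set 2 (adjusted p = 0.0546) and rose against set 1 (1.21 ± 0.35, adjusted p = 0.0124).

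Of these 4 strains aps1 itself fell against both control sets in Y1F and against set 2 alone in T4A and S2A-S7A. In S2A, where its antisense RNA was lowest, aps1 passed against neither set. The difference between S2A and Y1F in aps1 was not tested.

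asp1-antisense-1 had 9, 6 and 17 counts in set 1, 12, 12 and 6 in set 2, 56, 80 and 100 in S2A and 30, 30 and 41 in S2A-S7A. These 6 libraries, at 1.36 to 4.77 CPM, lay above all libraries of the other groups, which reached 1.17 CPM. It rose 8.15-fold in S2A (3.03 ± 0.37, adjusted p = 1.6e-04, edgeR) and 3.23-fold in S2A-S7A (1.69 ± 0.37, adjusted p = 0.0044) against set 1, and by 3.13 ± 0.32 and 1.82 ± 0.31 against set 2 (adjusted p = 6.6e-05 and 5.0e-04). S2A-S7A lay below S2A (-1.34 ± 0.29, adjusted p = 0.00762). asp1 fell in both strains against set 1 and gave -0.21 ± 0.14 and -0.02 ± 0.13 against set 2 (adjusted p = 0.258 and 0.91). Whether the antisense RNAs play a part in the levels of their partner genes was not tested.

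**Figure D4:**
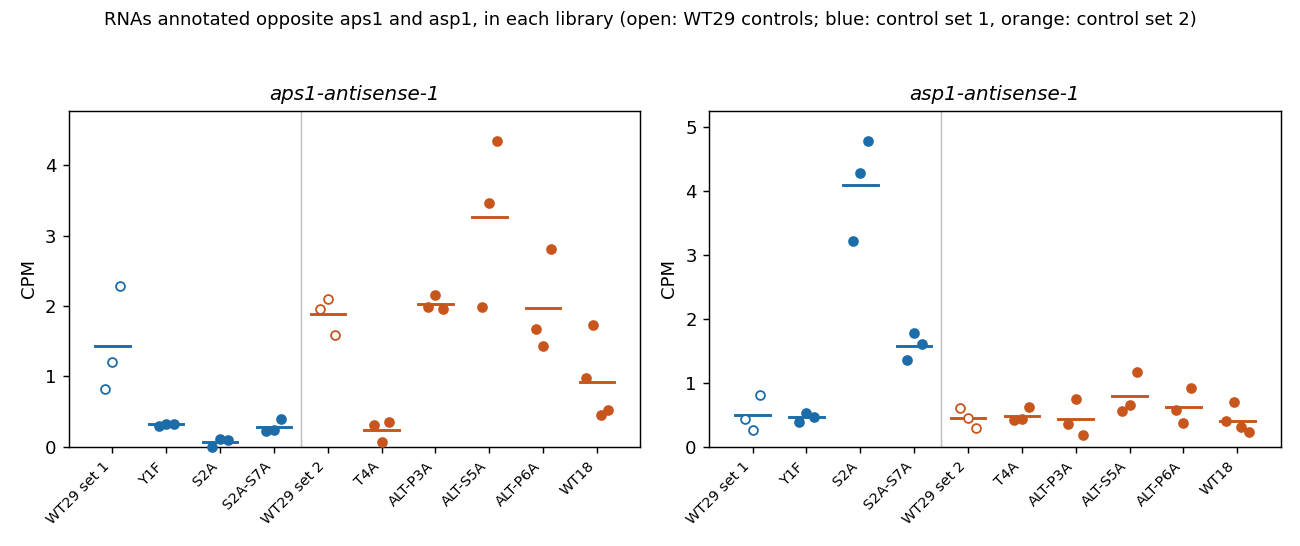
Level of the RNAs annotated opposite aps1 (left) and asp1 (right) in every library, in CPM (vertical axis, from 0), by group (horizontal axis); points are libraries, bars are group means and open points are controls. The left panel shows Y1F, S2A, S2A-S7A and T4A below all controls, and the right panel shows S2A (3.21 to 4.77 CPM) and S2A-S7A (1.36 to 1.78 CPM) above all other libraries.

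Neighbouring genes were looked up in a later assembly by name. asp1 overlaps yrs1, a tyrosine-tRNA ligase gene, on the same strand, and reads shared between them may be split or lost in counting. yrs1 fell in Y1F (-0.53 ± 0.08, adjusted p = 1.1e-04, edgeR) and in set 2 against set 1 (-0.72 ± 0.08, adjusted p = 1.9e-04), fell by 0.26 and 0.19 in ALT-P3A and ALT-P6A, and gave 0.09 ± 0.12 in T4A (adjusted p = 0.586), where asp1 fell. The neighbours of pho7, tom7 and cbp4, do not overlap it. tom7 rose in S2A-S7A (0.33 ± 0.05, adjusted p = 0.00124), as pho7 did, and also in T4A (0.40 ± 0.10, adjusted p = 0.00846) and ALT-P6A (0.32 ± 0.05, adjusted p = 9.2e-04), where pho7 did not pass against the same controls. cbp4 rose where pho7 rose, in Y1F (0.30) and S2A-S7A (0.40), and fell where pho7 fell, in WT18 (-0.86), but fell in ALT-P6A too (-0.33). Beside csk1, pis1 fell in WT18 by 0.88 ± 0.19 (adjusted p = 0.00368), where csk1 rose, and cct2 gave -0.15 ± 0.11 (adjusted p = 0.219). rcn1, beside aps1, gave -0.00 ± 0.10 in Y1F (adjusted p = 0.983), where aps1 fell.

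Among 4731 coding genes, the patterns most like each regulator were found by Pearson's r over the 10 group means of log2 CPM, as a description of groups that share scaling and control strain. For pho7 these were SPCC895.08c (0.943), mug89 (0.929) and ymr1 (0.928). For csk1 they were SPBP35G2.17 (0.926), the predicted exopolyphosphatase gene ppx1 (0.920) and SPCC1259.16 (0.920). For asp1 they were the cell end marker gene tea1 (0.931), teb1 (0.923) and cym1 (0.913), and for aps1 rpl1603 (0.931), dus1 (0.925) and SPAC1687.08 (0.876). None of the 4 regulators was among the 3 most like another.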

How the data were processed

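The deposited values are whole read counts per gene, made by the authors with HISAT2 2.1.0, SAMtools and HTSeq 0.10.0 on assembly ASM294v2, per the submitters' processing notes; 269 of 6986 IDs had none. The authors' deposited tables for the alleles hold log2 changes, adjusted p-values and group means of a signal, counts divided by size factors. Control columns 4, 5 and 6 were taken by elimination as 3 replicates of the single control set 2 record, and the 2 earlier WT18 columns are known by group only. Names came from the authors' deposited annotation and, for 4 list genes, from RefSeq on ASM294v3, as did neighbours; that assembly differs from the authors', so no coordinates or sequences are given and levels of different genes are not compared.

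The regulators, gene lists and tests were chosen with earlier results of these data known. Libraries of each comparison entered a separate edgeR 4.0.16 fit in R 4.3.3 (TMM scaling, filterByExpr, quasi-likelihood F test, prior count 0.125); direct contrasts kept the shared control set in the fit. CPM were scaled over all 31 libraries. Named genes were the regulators, the acquisition genes, the 2 largest changes per other list and comparison, annotated antisense RNAs and neighbours. The 3 most alike coding genes with a mean log2 CPM of at least 2 were named too. In WT18 mcs6, cdk9, cdc2 and lsk1 were named after their values were seen, as were pho842 and vtc values beyond these rules. No libraries of a group agreed within sampling noise (lowest chi-square 6.47 per degree of freedom). The fit was tested on simulated counts.

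Deviations from the group means correlated at 0.55, 0.13 and 0.25 between same-numbered libraries of S2A-S7A and S2A. Libraries of different numbers were not compared, so these values do not establish a pairing, and no label gives one. Alternatives were DESeq2 1.42.0 size factors and Wald test, no filter, a joint fit of a control set's groups, the other or both control sets, each library left out, a replicate block, either WT18 pair alone and unscaled CPM. Antisense RNAs, acquisition genes and lists against the other control set were added after seeing the data, as were leaving T4A replicate 2 out against control set 1, summing control set 2 to 1 library and the block for T4A against ALT-S5A.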

Additional observations from a re-analysis of the deposited data

How the results depend on the processing

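Of the 32 values against a labelled control, 5 kept their direction and their side of the threshold against the other control set. The log2 changes that did not were pho7 0.06, csk1 0.51 and asp1 0.03 in Y1F. In S2A they were pho7 -0.33, csk1 -0.02 and asp1 -0.21, and in S2A-S7A csk1 -0.07, asp1 -0.02 and aps1 -0.31. In T4A they were pho7 0.52, csk1 0.05 and aps1 -0.32, and with T4A replicate 2 left out as well pho7 0.37, csk1 0.17 and aps1 -0.14. In ALT-P3A they were pho7 0.34, csk1 -0.43, asp1 -0.56 and aps1 -0.05. In ALT-S5A they were pho7 0.09, csk1 -0.91, asp1 -0.33 and aps1 0.13. In ALT-P6A they were pho7 0.37, csk1 -0.85, asp1 -0.43 and aps1 0.12, and in WT18 pho7 -0.38, asp1 0.23 and aps1 0.05. With both control sets together the values that changed call or direction were pho7 0.22 and csk1 0.13 in Y1F, csk1 -0.41 and asp1 -0.32 in S2A, and csk1 -0.51 and asp1 -0.18 in S2A-S7A. They were also pho7 0.43, csk1 0.42 and aps1 -0.36 in T4A, csk1 -0.10 and aps1 -0.13 in ALT-P3A, aps1 0.05 in ALT-S5A, aps1 0.02 in ALT-P6A, and pho7 -0.35 and aps1 0.12 in WT18. The cause was not tested.

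The call of asp1 in S2A-S7A was lost with DESeq2 size factors (-0.28) and with no filter (-0.30). That of aps1 in ALT-P3A was lost with no filter (-0.21) and in a joint fit of the set 2 groups (-0.19), and asp1 in ALT-P3A passed in the DESeq2 Wald test (-0.29). With the earlier WT18 pair alone pho7 gave -0.24 and aps1 0.15. Leaving out 1 library at a time changed a call or a sign in S2A for pho7 (-0.08 to 0.00), asp1 (-0.49 to -0.36) and aps1 (-0.21 to 0.04), and in S2A-S7A for asp1 (-0.34 to -0.20). It did so in T4A for asp1 (-0.53 to -0.42) and aps1 (-0.59 to -0.33), and in ALT-P3A for csk1 (0.27 to 0.39), asp1 (-0.34 to -0.21) and aps1 (-0.26 to -0.16). In ALT-P6A it did so for pho7 (0.09 to 0.15) and aps1 (-0.10 to 0.00), and between the control sets for pho7 (0.24 to 0.31). Among the direct contrasts it did so for aps1 in S2A-S7A against S2A (-0.18 to 0.07) and, in T4A against ALT-S5A, for pho7 (0.27 to 0.51), asp1 (-0.50 to -0.35) and aps1 (-0.53 to -0.28). In ALT-P3A against ALT-P6A it did so for pho7 (-0.06 to 0.01), csk1 (0.38 to 0.47) and aps1 (-0.20 to -0.13).

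Y1F, S2A and S2A-S7A share replicate numbers with control set 1, ALT-P3A with ALT-P6A, and T4A with ALT-S5A, but same-numbered libraries did not all deviate together (correlations -0.32 to 0.48). With a replicate block asp1 in S2A-S7A gave -0.29 (adjusted p = 0.066, edgeR). In ALT-P3A against ALT-P6A, where the block was fitted without the control set, aps1 gave -0.16 (adjusted p = 0.047, edgeR). In T4A against ALT-S5A the block, added after seeing the data and fitted without the control set, gave pho7 0.42, asp1 -0.40 and aps1 -0.46 (adjusted p = 0.056, 0.15 and 0.067, edgeR), none past the threshold. The block changed no other call of a regulator. For the strains paired with control set 2 no paired analysis was possible against it because each shares fewer than 2 replicate numbers with it.

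Control set 2 is 1 sample record. With its columns summed to 1 library, an alternative chosen after seeing the data in which that library is assumed to vary like the others, calls were lost for csk1 0.76, asp1 -0.50 and aps1 -0.50 in T4A, aps1 -0.20 in ALT-P3A, pho7 -0.63 and asp1 0.48 in WT18, and pho7 0.28 between the control sets. In ALT-P3A csk1 (0.33) and asp1 (-0.28) then passed. Genes that rose went from 1105 to 341 in T4A and from 2202 to 1087 in WT18, and between the control sets from 1479 to 839.

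Counts over all genes moved too. In the joint fit the genes that rose went from 1328 to 583 in ALT-P3A and from 1344 to 831 in ALT-P6A, and those that fell from 1280 to 389 in ALT-P3A, 1099 to 618 in ALT-S5A and 1420 to 701 in ALT-P6A. With both control sets, rises went from 1416 to 930 in Y1F, 1764 to 1096 in S2A-S7A, 1328 to 224 in ALT-P3A, 908 to 373 in ALT-S5A and 1344 to 486 in ALT-P6A. Falls went from 1656 to 912 in Y1F, 1865 to 1069 in S2A-S7A, 1351 to 741 in T4A, 1280 to 249 in ALT-P3A, 1099 to 341 in ALT-S5A and 1420 to 598 in ALT-P6A. With a block, and with the control set left out of the fit, rises in ALT-P3A against ALT-P6A went from 804 to 1293. Leaving out 1 library took falls in S2A-S7A against S2A from 1021 to as few as 438, and rises in ALT-P3A from 1328 to as few as 534. A minimum change of 2-fold left 65 to 717 of the genes that fell in the comparisons where that moved the count. Unscaled CPM moved WT18 most, with asp1 at 63 CPM against 46.4 CPM. asp1-antisense-1 and aps1-antisense-1 rest on 0 to 123 counts per library.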
